A study of Mus musculus with 8 samples.

Results

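A set of 9 genes of the B lymphocyte lineage, *Cd79a*, *Cd79b*, *Ms4a1*, *Cd22*, *Cr2*, *Fcer2a*, *Tnfrsf13c*, *Pax5* and *Il9r*, was followed in RNA-seq counts of sorted myeloid cells. They were chosen by name, through the gene symbols of the count table, and make up 9 of its 54188 genes. All 9 passed the filter on low counts, as did 17650 genes in all, although *Cr2*, *Fcer2a* and *Il9r* did not pass on the 4 BM libraries alone. They were read here as transcripts of sorted myeloid fractions, and no library of purified B cells was analysed here.

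A B cell recognizes antigen through its B cell receptor, a membrane immunoglobulin that signals through the CD79A and CD79B chains bound to it. Complement receptor 2 lowers the threshold of that signal, whereas CD22 dampens it. Mature B cells of the spleen depend for survival on the cytokine BAFF and its receptor, and PAX5 is the transcription factor that holds cells in the B lineage from the pro-B stage in the bone marrow (BM) onward. In BM, B cell precursors lie among the myeloid cells, whereas mature follicular and marginal zone B cells reside in the spleen (SP).

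The cells came from sanroque mice, which are homozygous for the san allele of Roquin (san/san), an RNA-binding protein whose mutation causes a lupus-like disease, on the C57BL/6 background. The labels give all mice as female and 20 weeks old. CD11b+ cells were sorted by FACS into Gr-1hi and Gr-1lo fractions from SP and from BM, and each of the 4 groups holds 2 libraries. Libraries 5 and 6 are SP Gr-1hi, 7 and 8 SP Gr-1lo, 9 and 10 BM Gr-1hi, and 11 and 12 BM Gr-1lo, numbered as in the labels. The labels call the Gr-1hi cells G-MDSC and the Gr-1lo cells M-MDSC, that is granulocytic and monocytic myeloid-derived suppressor cells. All groups carry the san/san genotype, so no comparison with wild-type cells was made. The libraries of a group are given as independent biological replicates. The study describes the marrow cells as autologous, that is from the same animals as the splenic cells, but no source used here says which libraries share a mouse, or whether mice were pooled. The groups were therefore fitted as unpaired.

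Libraries held 33453580 to 68316154 counts. Levels are given as counts scaled to a common library size (CPM) after TMM scaling, or as length-corrected values (TPM) where genes are compared with each other. Where a library had 0 counts of a gene, up to 3 counts remain possible, or 0.0348 to 0.124 CPM, a limit that covers counting error only. The sort markers followed the gates, with *Ly6g*, a neutrophil surface antigen, at 330 to 801 CPM in the Gr-1hi libraries and 3.07 to 8.23 CPM in the Gr-1lo libraries. *Itgam*, which encodes CD11b, lay at 734 CPM or more in all 8 libraries. Libraries 5 and 7 stood apart in sex-linked RNA. *Xist*, the X-inactivation RNA of female cells, gave 12032 counts in library 5 and 9898 in library 7, and no other library exceeded 5. *Ddx3y*, on the Y chromosome, had 0 counts in library 5 and 1595 to 4902 in the other 7, although every label says female. The counts of the 9 genes at the thresholds of each comparison were therefore also made without libraries 5 and 7. They stayed at 9 and 8 of the 9 genes for SP against BM in Gr-1hi and in Gr-1lo cells, at 0 and 1 for Gr-1hi against Gr-1lo cells in SP and in BM, and at 1 for the interaction. A count at looser thresholds in BM, described with that comparison, changed, and the other gene lists were not counted without these libraries.

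The promoters of 4 of the genes are shown because these genes cover a receptor chain, a co-receptor, a survival receptor and a cytokine receptor, and because each holds the E-box described below upstream of both annotated starts. They were thus picked with their letters known, and the windows of *Pax5* and 2 of the 3 windows of *Fcer2a* hold none of the motifs searched. RefSeq windows of 250 bases before to 50 bases after a start on GRCm38.p6 were found for 7 of the 9 genes (9 windows), and none was found for *Ms4a1* and *Cd79b*. The printed stretch is the part upstream of both the RefSeq start and the GENCODE gene, 5′ to 3′ on the strand of the gene, with the E-box CAGGTG, read on either strand, in capitals. The stretches lie at chr7:24897247-24897380 (plus strand, *Cd79a*, 134 bases), chr1:195176720-195176969 (minus strand, *Cr2*, 250 bases), chr15:82224381-82224630 (minus strand, *Tnfrsf13c*, 250 bases) and chr11:32200280-32200529 (minus strand, *Il9r*, 250 bases).
Cd79a: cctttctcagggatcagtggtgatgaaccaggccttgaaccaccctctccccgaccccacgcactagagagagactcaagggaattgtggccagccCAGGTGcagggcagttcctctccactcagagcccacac
Cr2: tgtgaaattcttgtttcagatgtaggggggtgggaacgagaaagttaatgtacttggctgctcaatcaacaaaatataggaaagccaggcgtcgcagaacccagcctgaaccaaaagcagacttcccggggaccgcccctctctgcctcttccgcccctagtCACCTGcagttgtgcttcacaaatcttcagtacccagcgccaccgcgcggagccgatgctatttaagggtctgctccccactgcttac
Tnfrsf13c: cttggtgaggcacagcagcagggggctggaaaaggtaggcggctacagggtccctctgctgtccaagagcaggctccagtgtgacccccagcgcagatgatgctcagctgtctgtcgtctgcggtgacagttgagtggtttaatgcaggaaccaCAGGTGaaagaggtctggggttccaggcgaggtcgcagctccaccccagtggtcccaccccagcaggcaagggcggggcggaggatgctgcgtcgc
Il9r: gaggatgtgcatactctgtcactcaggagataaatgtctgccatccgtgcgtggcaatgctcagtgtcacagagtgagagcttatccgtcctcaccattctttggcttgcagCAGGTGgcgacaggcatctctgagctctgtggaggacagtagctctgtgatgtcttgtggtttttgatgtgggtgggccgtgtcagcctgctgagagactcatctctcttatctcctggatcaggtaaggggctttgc
The E-box began at position -154 from the RefSeq start in *Cd79a*, -88 in *Cr2*, -96 in *Tnfrsf13c* and -138 in *Il9r*. It was present in 1 window of each of 6 genes, the 4 above, *Cd22* and *Fcer2a*, which is 6 of the 9 windows, and in 20.2% of all 32851 windows of that length. CCCNNGGG, the core read by EBF1, was in 1 of the 9 windows, that of *Cd22*, and in 13.7% of all windows. The octamer ATGCAAAT was in 1.74% of all windows and the ETS-type motif GAGGAAGT in 3.20%, both read on either strand, and these letters were in none of the 9 windows. In the *Cd22* window the EBF1 core, at position -48, and the E-box, at -245, did not overlap. A match describes the letters of the window and not a site in use.

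The chains of the B cell receptor complex were read first. *Cd79a* (ENSMUSG00000003379, chr7:24897381-24902197, plus strand) encodes the alpha signalling chain. It stood at 71.3 and 50.2 CPM in the SP Gr-1hi libraries, 8.80 and 11.9 in SP Gr-1lo, 3.78 and 3.01 in BM Gr-1hi, and 0.492 and 0.945 in BM Gr-1lo. The 4 groups did not overlap and followed that order. *Cd79b* (ENSMUSG00000040592, chr11:106311341-106314762, minus strand) encodes the beta chain, which pairs with CD79A. Its levels were 46.0 and 32.0 CPM in SP Gr-1hi, 9.29 and 11.9 in SP Gr-1lo, 2.84 and 2.27 in BM Gr-1hi, and 5.84 and 6.37 in BM Gr-1lo. Here the marrow groups stood in the opposite order, with both Gr-1lo libraries above both Gr-1hi libraries.

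*Ms4a1* (ENSMUSG00000024673, chr19:11249675-11266241, minus strand) encodes CD20, a surface protein of B cells from the pre-B stage on. It was at 68.1 and 44.7 CPM in SP Gr-1hi, 7.01 and 9.74 in SP Gr-1lo, 1.42 and 0.908 in BM Gr-1hi, and 0.0819 and 0.246 in BM Gr-1lo. *Cd22* (ENSMUSG00000030577, chr7:30865402-30880342, minus strand) encodes the inhibitory co-receptor that binds sialic acid. Its values were 103 and 74.4 CPM in SP Gr-1hi, 13.4 and 16.8 in SP Gr-1lo, 2.84 and 1.61 in BM Gr-1hi, and 0.471 and 0.548 in BM Gr-1lo. The groups of both genes were again separate, in the order of *Cd79a*. Exons of *Cd22* share 479 bases with the antisense gene *Gm29439*, so its counts keep that uncertainty, although the libraries were stranded.

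*Cr2* (ENSMUSG00000026616, chr1:195136811-195176716, minus strand) encodes complement receptors 1 and 2, which mature B cells and follicular dendritic cells carry. It was at 57.8 and 32.3 CPM in SP Gr-1hi and at 6.25 and 5.40 in SP Gr-1lo. In BM it was close to nothing, at 0.449 and 0.0413 CPM in Gr-1hi (12 counts and 1 count) and at 0 and 0.0378 in Gr-1lo (0 and 2 counts). *Fcer2a* (ENSMUSG00000005540, chr8:3681737-3694175, minus strand) encodes CD23, the low-affinity IgE receptor of follicular B cells. It had 20.8 and 10.4 CPM in SP Gr-1hi, 2.11 and 2.51 in SP Gr-1lo, 0.449 and 0.124 in BM Gr-1hi, and 0.0819 and 0.0189 in BM Gr-1lo. The marrow libraries of both genes rested on 12 counts or fewer each.

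*Tnfrsf13c* (ENSMUSG00000068105, chr15:82221743-82224369, minus strand), the BAFF receptor, lay at 17.4 and 10.9 CPM in SP Gr-1hi, 1.92 and 2.68 in SP Gr-1lo, 0.374 and 0.413 in BM Gr-1hi, and 0.205 and 0.0945 in BM Gr-1lo. *Pax5* (ENSMUSG00000014030, chr4:44524757-44710487, minus strand) had 57.8 and 40.2 CPM in SP Gr-1hi, 6.37 and 8.22 in SP Gr-1lo, 3.07 and 2.97 in BM Gr-1hi, and 0.348 and 0.718 in BM Gr-1lo. Exons of *Pax5* share 636 bases with *5730488B01Rik* and 125 bases with *Gm12462* on the opposite strand. *Il9r* (ENSMUSG00000020279, chr11:32187541-32200279, minus strand) encodes the ligand-binding chain of the IL-9 receptor, which signals with the common gamma chain. Its levels were 23.9 and 13.5 CPM in SP Gr-1hi, 2.66 and 2.25 in SP Gr-1lo, 0.486 and 0.165 in BM Gr-1hi, and 0 and 0.0189 in BM Gr-1lo. Only 1 count of *Il9r* was found in the 2 BM Gr-1lo libraries together.

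**Figure D1:**
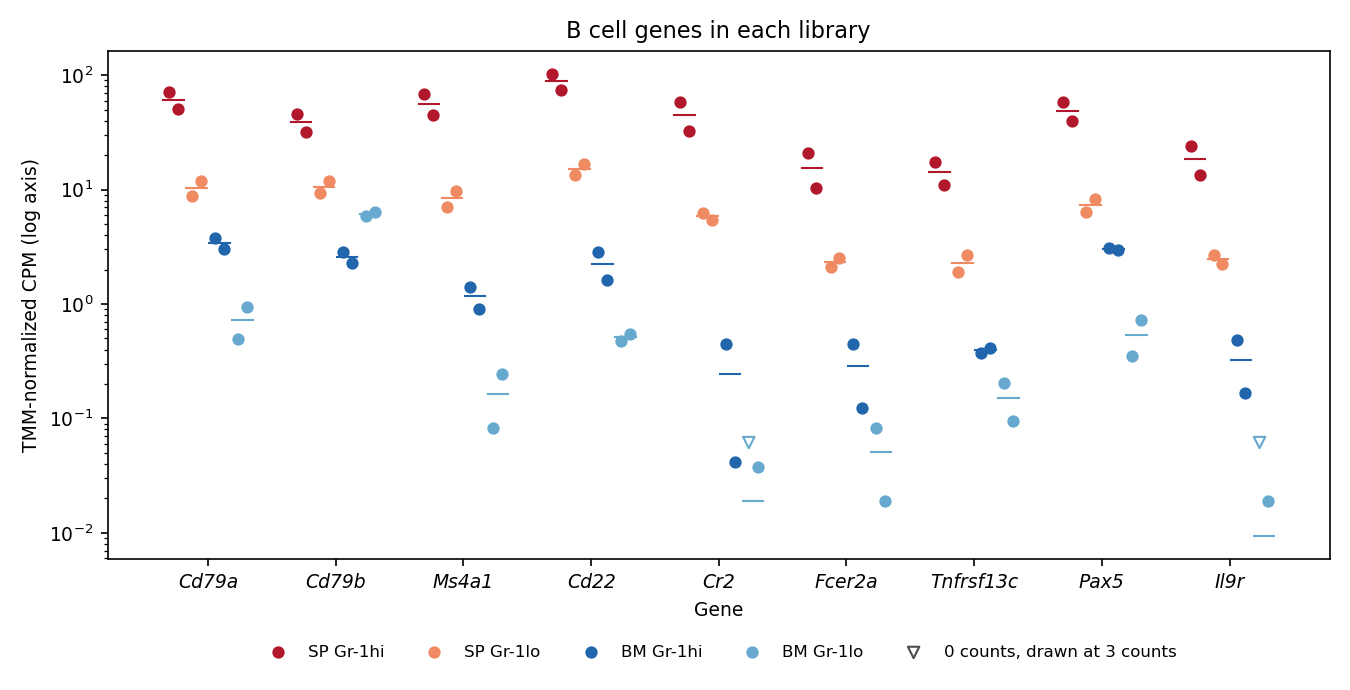
TMM-normalized CPM (log axis) of the 9 B cell genes in each of the 8 libraries, with 1 point per library and a line at the mean of each group; open triangles mark libraries with 0 counts, drawn at the level of 3 counts. SP Gr-1hi libraries are highest for every gene, and *Cd79b* is the gene whose BM Gr-1lo libraries (5.84 and 6.37 CPM) lie above its BM Gr-1hi libraries (2.84 and 2.27 CPM).

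Summed over the 9 genes, the levels were 466 and 308 CPM in SP Gr-1hi, 57.9 and 71.4 in SP Gr-1lo, 15.7 and 11.5 in BM Gr-1hi, and 7.52 and 8.99 in BM Gr-1lo. Library 5 exceeded library 6 in each gene, by 1.38-fold to 2.00-fold in CPM, so the spread within SP Gr-1hi was shared by the genes. Per length, the signalling chains were the most abundant in SP Gr-1hi cells, with *Cd79a* at 84.4 ± 25.3 TPM and *Cd79b* at 55.1 ± 17.0 TPM (SD, n = 2). *Cd22* followed at 35.6 ± 10.0 TPM and *Ms4a1* at 18.5 ± 6.43 TPM. *Tnfrsf13c* (14.0 ± 5.31 TPM), *Cr2* (11.3 ± 5.11 TPM), *Pax5* (11.2 ± 3.46 TPM), *Fcer2a* (10.3 ± 5.34 TPM) and *Il9r* (7.68 ± 3.44 TPM) lay within 1 SD of their neighbours in this order. In BM Gr-1lo cells *Cd79b* led at 13.1 ± 0.631 TPM, above *Cd79a* at 1.51 ± 0.657 TPM, and the other 7 genes had means of 0.311 TPM or less.

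SP and BM cells of the Gr-1hi gate were compared to ask how splenic cells differ from marrow cells of the same phenotype. All 9 genes were higher in SP by the quasi-likelihood test of edgeR with p adjusted after Benjamini-Hochberg (adjusted p up to 0.05, fold change or FC from 2 upward), against 14.0% of the 17650 genes tested. Their median log2 FC was 5.30, beside 0.03 over all genes tested. In bulk RNA, fewer cells of a type and less RNA per cell cannot be told apart. *Cr2*, *Fcer2a* and *Il9r* passed the filter on low counts through the SP libraries, so their direction was not independent of that filter. *Cr2* had the highest edgeR estimate, a log2 FC of 7.45 (SE 0.56, edgeR adjusted p = 0.000173), or 175-fold, against 12 counts and 1 count in BM Gr-1hi. It was 6.54 without library 10 and 9.93 without library 9, where only the 1 count remained, and with limma on quantile-normalized TPM it was 3.74, below *Cd22* (4.04) and *Ms4a1* (3.81). *Il9r* was 55.9-fold higher in SP (log2 FC 5.80, SE 0.46), *Fcer2a* 52.7-fold (5.72, SE 0.54) and *Ms4a1* 48.0-fold (5.58, SE 0.36). Marrow libraries moved 2 of these by over 1.5 times, as the log2 FC was 5.16 without library 10 and 6.73 without library 9 for *Il9r*, and 5.01 and 6.88 for *Fcer2a*, which was also 5.06 without library 5. *Cd22* was 39.5-fold higher (log2 FC 5.30, SE 0.28) and *Tnfrsf13c* 35.8-fold (5.16, SE 0.39). The values were smallest for *Cd79a* at 17.8-fold (log2 FC 4.16, SE 0.29), *Pax5* at 16.2-fold (4.02, SE 0.28) and *Cd79b* at 15.2-fold (3.93, SE 0.24). The edgeR adjusted p of each of the 9 was 0.000319 or less, and all 9 passed without any 1 library.

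In the Gr-1lo gate 8 of the 9 genes were higher in SP than in BM at the same thresholds, where 3.84% of all genes tested were. The median log2 FC was 4.89 for the 9 genes and -0.01 over all genes tested. The limit that the filter sets on *Cr2*, *Fcer2a* and *Il9r* holds here too. *Ms4a1* was 49.7-fold higher (log2 FC 5.63, SE 0.43, edgeR adjusted p = 0.000445), *Fcer2a* 44.7-fold (5.48, SE 0.67) and *Cd22* 29.6-fold (4.89, SE 0.30). *Tnfrsf13c* (15.4-fold), *Cd79a* (14.3-fold) and *Pax5* (13.5-fold) had smaller differences, with log2 FC of 3.95, 3.83 and 3.76. Single BM Gr-1lo libraries moved 4 of these values by over 1.5 times without ending a call. Without library 11 and without library 12 the log2 FC was 5.08 and 6.64 for *Ms4a1*, 6.74 and 4.78 for *Fcer2a*, 4.58 and 3.49 for *Tnfrsf13c*, and 3.35 and 4.39 for *Pax5*. *Cr2* and *Il9r* rested on 2 counts and 1 count in the BM Gr-1lo libraries, so their ratios of scaled counts follow, each with an exact 95% interval for counting error. The ratio was 290 (80.0 to 2399) for *Cr2* and 244 (43.4 to 9650) for *Il9r*, with edgeR adjusted p values of 0.00111 and 0.000981. *Cd79b* did not pass, with a log2 FC of 0.80 (SE 0.20, edgeR adjusted p = 0.0618), or 1.74-fold, although its SP and BM libraries did not overlap. With limma on quantile-normalized TPM, 6 of the 9 were called, since *Fcer2a* (adjusted p = 0.0655) and *Il9r* (adjusted p = 0.0768) no longer passed, and the log2 differences were smaller, at 1.79 for *Ms4a1* and 1.29 for *Fcer2a*. No share of all genes was counted for limma.

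**Figure D2:**
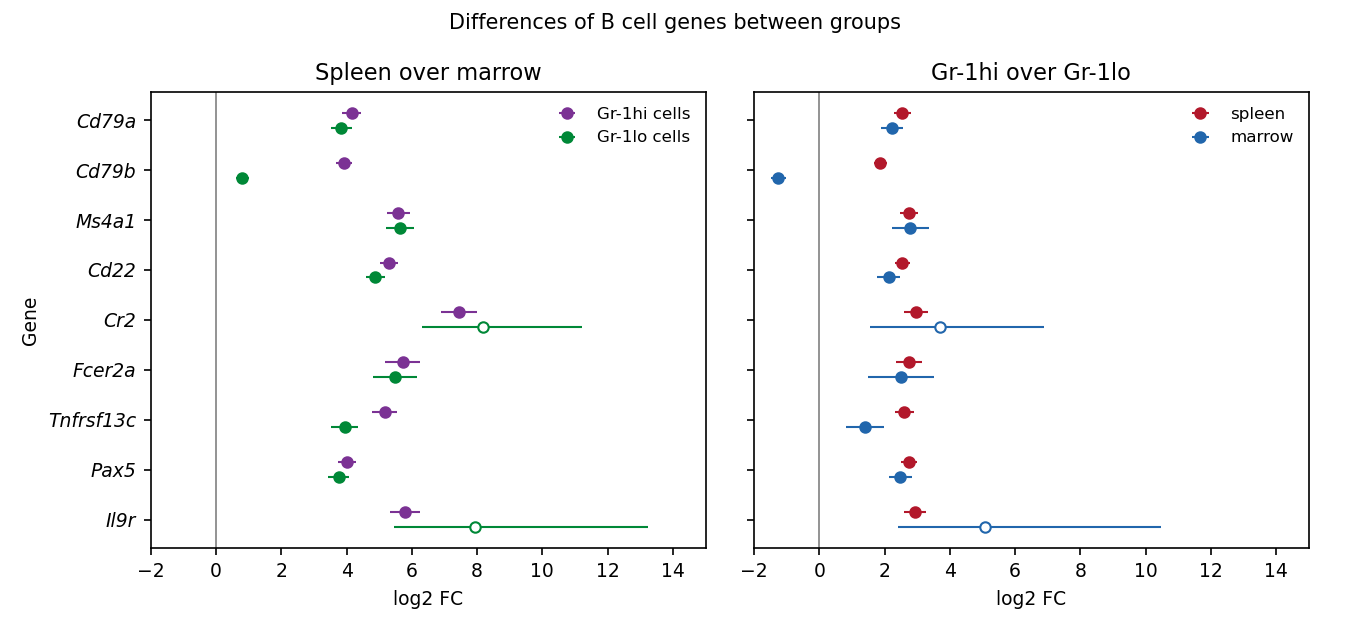
log2 FC of the 9 genes for SP over BM (left, in Gr-1hi and Gr-1lo cells) and for Gr-1hi over Gr-1lo (right, in SP and BM). Filled points are edgeR estimates with bars of 1 SE; open points are ratios of scaled counts with exact 95% counting intervals, used where a group held 1 to 3 counts. *Cd79b* stands at 0.80 in Gr-1lo cells on the left and at -1.25 in BM on the right, away from the other 8 genes.

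The Gr-1hi and Gr-1lo fractions of each tissue were compared at the stricter thresholds of the study, namely more than 8-fold with an adjusted p under 0.01. In SP 0 of the 9 genes passed by edgeR, where 4.44% of all genes tested were higher in Gr-1hi cells, although all 9 had an unadjusted p under 0.05. DESeq2 called 2, *Cr2* and *Il9r*, which edgeR also called with RLE or upper-quartile scaling. At the looser thresholds used between the tissues (2-fold, adjusted p 0.05), all 9 were higher in SP Gr-1hi than in SP Gr-1lo cells, where 22.3% of all genes were. The FC ran from 3.67 for *Cd79b* (log2 FC 1.87, SE 0.20) to 7.65 for *Il9r* (2.94, SE 0.34) and 7.76 for *Cr2* (2.96, SE 0.36), with edgeR adjusted p values of 0.000276 or less. The last 2 lay just under the 8-fold threshold. The other 6 genes lay between 5.84-fold (*Cd22*) and 6.70-fold (*Fcer2a* and *Ms4a1*), and *Fcer2a* was at 4.40-fold without library 5. Libraries of the 2 fractions did not overlap for any of the 9. Separation of this kind was not counted over all genes tested, of which 13016 had an unadjusted p of up to 0.05 by edgeR.

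In BM 1 gene passed the strict thresholds, *Il9r* (log2 FC 4.72, SE 1.17, edgeR adjusted p = 0.00582), where 6.56% of all genes were higher in Gr-1hi cells. Its value rests on 1 count in Gr-1lo cells, its ratio of scaled counts was 33.9 with a counting interval of 5.32 to 1418, and its adjusted p over the alternative settings ran up to 0.328. At the looser thresholds 5 genes were higher in BM Gr-1hi cells, where 24.2% of all genes were. These were *Ms4a1* (6.94-fold), *Pax5* (5.59-fold), *Cd79a* (4.69-fold), *Cd22* (4.37-fold) and *Il9r*. *Fcer2a* (log2 FC 2.51, SE 1.02, edgeR adjusted p = 0.0511), *Tnfrsf13c* (1.39, SE 0.58, edgeR adjusted p = 0.0551) and *Cr2* (log2 ratio of scaled counts 3.70, counting interval 1.55 to 6.89, edgeR adjusted p = 0.0619) did not pass. These 3 lay close to the threshold, and the count of 5 became 8 with DESeq2 (adjusted p = 0.00373, 0.0216 and 0.0173 in that order) and 8 without a filter on low counts. It became 7 with RLE scaling and 7 without libraries 5 and 7, where *Fcer2a* and *Tnfrsf13c* passed, and 1 with limma (*Cd79a*). Without 1 marrow library it ran from 4 (without library 9, where *Il9r* was lost) to 7 (without library 10). *Ms4a1* and *Pax5* moved by over 1.5 times without library 12, to log2 FC of 3.77 and 3.08. *Cd79b* was the gene of the 9 that was lower in BM Gr-1hi cells, by 2.38-fold (log2 FC -1.25, SE 0.24, edgeR adjusted p = 0.00119), where 33.1% of all genes were.

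The interaction of tissue and subset, that is the log2 FC of Gr-1hi over Gr-1lo in SP minus that in BM, tests whether the difference between the fractions depends on the tissue. *Cd79b* was the 1 gene of the 9 called (log2 interaction 3.13, SE 0.31, edgeR adjusted p = 0.00184), where 7.74% of all genes were higher. It was 3.67-fold higher in Gr-1hi cells in SP and 2.38-fold lower in Gr-1hi cells in BM, and in both tissues the fractions did not overlap. The other 8 had interactions between -1.79 (*Il9r*, SE 1.36) and 1.22 (*Tnfrsf13c*, SE 0.67), with edgeR adjusted p values of 0.252 or more. With limma on quantile-normalized TPM, 8 of the 9 passed in the positive direction, and *Cd79a* (0.41, adjusted p = 0.466) did not. The share of all genes that passed was not counted for limma. *Cd79b* passed under both methods. Beside the monocyte list, which follows the gate, the lists of other cell types that summed higher in BM Gr-1lo than in BM Gr-1hi libraries were those of plasmacytoid dendritic cells (64.3 to 64.6 against 16.3 to 22.9 summed CPM), plasma cells (230 to 256 against 101 to 102) and NK cells (11.0 to 33.2 against 2.52 to 2.88). At the looser thresholds 2 of 4 plasmacytoid dendritic cell genes were lower in BM Gr-1hi cells and 1 was higher, 3 of 6 plasma cell genes were lower and 0 higher by edgeR (3 at an unadjusted p under 0.05), and 1 of 6 NK cell genes was lower and 3 were higher, beside 33.1% of all genes lower and 24.2% higher. The median log2 FC of the tested genes was -1.07, -1.13 and 1.70 in these lists. In BM Gr-1lo cells the summed levels of these lists came mostly from *Tcf4* and *Bst2*, *Xbp1*, and *Klrk1*, in that order of lists. The part of these cells in the *Cd79b* result was not tested.

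The mix of the 9 transcripts also differed between tissues. It is given as CPM per CPM of *Cd79a*, without length correction, so that libraries and not genes are compared. *Pax5* kept close to *Cd79a* everywhere, with 0.693 to 0.986 CPM per CPM of *Cd79a* over the 8 libraries. *Cr2* had 0.643 and 0.811 CPM per CPM of *Cd79a* in SP Gr-1hi and 0.456 and 0.710 in SP Gr-1lo, but 0.0137 and 0.119 in BM Gr-1hi and 0 and 0.0400 in BM Gr-1lo. *Ms4a1* stood at 0.796 to 0.956 of *Cd79a* in the SP libraries and at 0.167 to 0.376 in the BM libraries. For *Cd22* the ratio was 1.42 to 1.53 in SP and 0.534 to 0.958 in BM. *Fcer2a* (0.207 to 0.291 in SP, 0.0200 to 0.167 in BM) and *Il9r* (0.190 to 0.336 in SP, 0 to 0.129 in BM) were likewise lower in each BM library, on 13 counts or fewer per BM library. Thus the SP and BM libraries did not overlap in these ratios for *Cr2*, *Ms4a1*, *Cd22*, *Fcer2a* and *Il9r*, while they did for *Pax5* and *Tnfrsf13c*. *Cd79b* lay at 0.637 to 1.06 of *Cd79a* in libraries 5 to 10 and at 11.9 and 6.74 in the BM Gr-1lo libraries. As a share of the summed TPM of the 9 genes, *Cd79b* took 22.0% to 33.5% in libraries 5 to 10 and 87.0% and 82.6% in libraries 11 and 12. These ratios were compared by range and not tested.

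**Figure D3:**
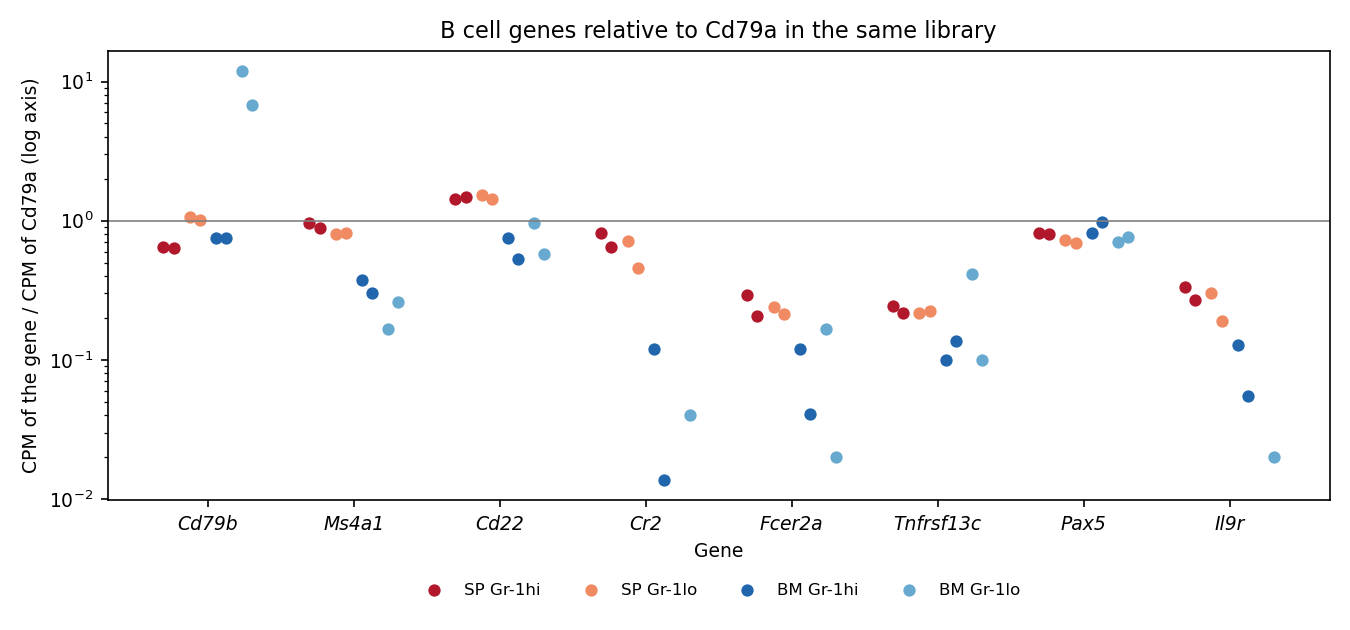
CPM of each gene divided by the CPM of *Cd79a* in the same library (log axis), 1 point per library; the grey line marks a ratio of 1, and libraries with 0 counts of a gene (1 each for *Cr2* and *Il9r*, both BM Gr-1lo) are not drawn. *Cd79b* reaches 11.9 and 6.74 in BM Gr-1lo cells, and *Cr2* lies at 0.456 to 0.811 in SP and at 0.119 or less in BM.

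Related gene lists were read in the same fits, by their counts and medians. Of 20 further genes of B cell receptor signalling, 8 were higher in SP in Gr-1hi cells (14.0% of all genes) and 9 in Gr-1lo cells (3.84% of all genes), with median log2 FC of 0.26 and 0.57. The 3 with the highest CPM in SP, the kinases *Syk* and *Lyn* and the phosphatase *Ptpn6*, which myeloid cells also use, had log2 FC of 0.24, 0.20 and 0.18 in Gr-1hi cells and did not pass. Among those that did was *Blk*, a Src kinase of B cells, named here after its values were seen (log2 FC 4.34 in Gr-1hi cells). Of 10 B lineage transcription factors, 9 and 6 were higher in SP, with medians of 3.16 and 2.00. Among these, *Pou2f2* (2.06 in Gr-1hi cells) and *Ikzf3* (4.01) passed and *Tcf3* (0.08) did not.

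Genes of mature follicular and marginal zone B cells were higher in SP for 8 of 9 in Gr-1hi cells and 7 of 9 in Gr-1lo cells, with medians of 4.88 and 3.96. *Ighd*, the IgD heavy chain of mature naive B cells, had log2 FC of 5.21 and 3.96, and *H2-Ob* had 4.93 and 3.28. *Cd55*, a complement regulator that granulocytes share, had -0.77 in Gr-1hi cells, which did not reach 2-fold, and was higher in SP in Gr-1lo cells (2.60). The 1 gene lower in SP Gr-1lo cells was *S1pr3* (-1.25), where 0.215% of all genes were lower. Of 6 germinal centre genes, 4 and 2 were higher, with medians of 3.43 and 1.75. *Bcl6* (-0.01 and 0.59) and *S1pr2* (0.30 and 0.04), first among them by CPM, did not pass, and *Mybl1* (1.90) passed in Gr-1hi cells. Of 8 genes of pro-B and pre-B cells, 5 passed the filter, and 2 of these were higher in SP Gr-1hi cells and 1 in SP Gr-1lo cells, with medians of -0.86 and -0.50. *Il7r*, which T cells also express, passed in both (2.21 and 3.68) and *Vpreb3* in Gr-1hi cells (2.00), while *Rag1*, a recombinase of developing lymphocytes, had -0.86 and -0.90 and did not pass.

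Ligands of the BAFF system and partners of the BAFF and IL-9 receptors were read next. Of 8 further BAFF system genes tested, 1 was higher in SP in each gate, *Nfkb2* in Gr-1hi (1.10) and *Relb* in Gr-1lo cells (1.47), both NF-kB subunits of the non-canonical arm. *Traf3* (-0.26 and 0.32) and *Map3k14* (0.41 and 0.53), which control that arm, did not pass. The ligand gene *Tnfsf13b*, which encodes BAFF, was lower in SP Gr-1hi cells but did not reach 2-fold (log2 FC -0.66, edgeR adjusted p = 0.0438). Its means were 50.4 CPM in SP Gr-1hi and 79.9 in BM Gr-1hi, and 10.9 in SP Gr-1lo and 7.36 in BM Gr-1lo. *Tnfsf13*, which encodes the ligand APRIL, had 0.65 in Gr-1hi cells (edgeR adjusted p = 0.0613). *Tnfrsf13b*, a receptor of the same ligands that was chosen after its values were seen, stood at 71.3 and 79.1 TPM in BM Gr-1lo and at 60.7 and 59.4 TPM in SP Gr-1lo, where *Tnfrsf13c* was at 3.78 TPM or less. Of 7 IL-9 receptor partners, *Il2rg*, the common gamma chain, was higher in SP in both gates (1.25 and 1.08). *Stat3* (0.01 and 0.15) and *Jak1* (-0.06 and 0.20), among the first by CPM, did not pass.

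Lists of other cells that the sorted fractions could hold were read beside these results. Of 10 T cell genes, 9 and 10 were higher in SP, with medians of 4.22 and 4.02. Their summed levels were 76.2 to 125 CPM in SP Gr-1hi, 26.7 to 40.7 in SP Gr-1lo, 6.81 to 10.9 in BM Gr-1hi and 2.66 to 2.99 in BM Gr-1lo, the same order of groups as for *Cd79a*. *Lck* (4.33 and 3.98), *Trac* (4.80 and 4.17) and *Thy1* (4.30 and 3.01) had the highest CPM of them. Plasma cell genes were higher in SP for 6 of 6 and 4 of 6, with *Jchain* at 3.42 and 3.02, *Irf4* at 3.03 in Gr-1hi cells and *Xbp1* at 1.30 in Gr-1hi cells. Of 6 NK cell genes, 4 and 3 were higher, including *Gzma* (3.10 and 4.70) and *Prf1* (4.17 and 4.26), and *Klrk1* (1.51 and -0.15) did not pass. Erythroid genes were higher for 5 of 6 and 6 of 6, with globins such as *Hba-a1* at 3.52 and 4.71, and summed to 217 and 731 CPM in libraries 5 and 6. These globin genes have near-identical copies, so their counts are uncertain one by one.

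Of 4 follicular dendritic and stromal genes tested of 6, *Clu* (3.56) and *Cxcl13*, a B cell-attracting chemokine, were higher in SP Gr-1hi cells. *Cxcl13* had 0 counts in BM and 0.817 CPM on average in SP Gr-1hi cells. It was not among the 3 genes of this list with the highest CPM in SP. It passed the filter on low counts through the SP Gr-1hi libraries, so its direction was not independent of that filter. *Col1a1* (3.43 CPM on average in SP Gr-1hi and 5.61 in BM Gr-1hi) and *Pdgfrb* (0.383 and 0.305) did not pass. In Gr-1lo cells 0 of the 4 passed by edgeR and 2 had an unadjusted p under 0.05. Genes lower in SP Gr-1hi cells, as were 1.48% of all genes, numbered 1 among the plasmacytoid dendritic cell genes, 4 among those of basophils and mast cells and 2 among those of neutrophils, and in SP Gr-1lo cells 1 basophil gene, *Mcpt8*, was lower. Among 4 plasmacytoid dendritic cell genes tested of 6, 0 were higher in SP Gr-1hi cells by edgeR, with 4 at an unadjusted p under 0.05, and 0 in SP Gr-1lo cells, with 1. Basophil and mast cell genes had 0 of 6 higher in either gate, with 6 and 1 at an unadjusted p under 0.05, and medians of -1.20 and -0.15. Neutrophil genes had medians of -0.76 and 0.61, with 0 and 1 of 6 higher and 6 and 4 at an unadjusted p under 0.05. Monocyte genes had medians of -0.65 and -0.36, with 1 and 0 of 6 higher and 2 and 2 at an unadjusted p under 0.05. Between SP and BM the B cell genes thus moved beside T, plasma, NK and erythroid genes. For Gr-1hi over Gr-1lo, plasma cell genes had median log2 FC of 0.24 in SP and -1.13 in BM. The medians were 1.65 and 1.28 for T cell, 1.06 and 1.70 for NK cell, and 1.25 and 2.34 for erythroid genes. In SP 0 of the 6 erythroid genes passed by edgeR even at the looser thresholds, with 2 at an unadjusted p under 0.05. The part of these cells in the results was not tested.

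**Figure D4:**
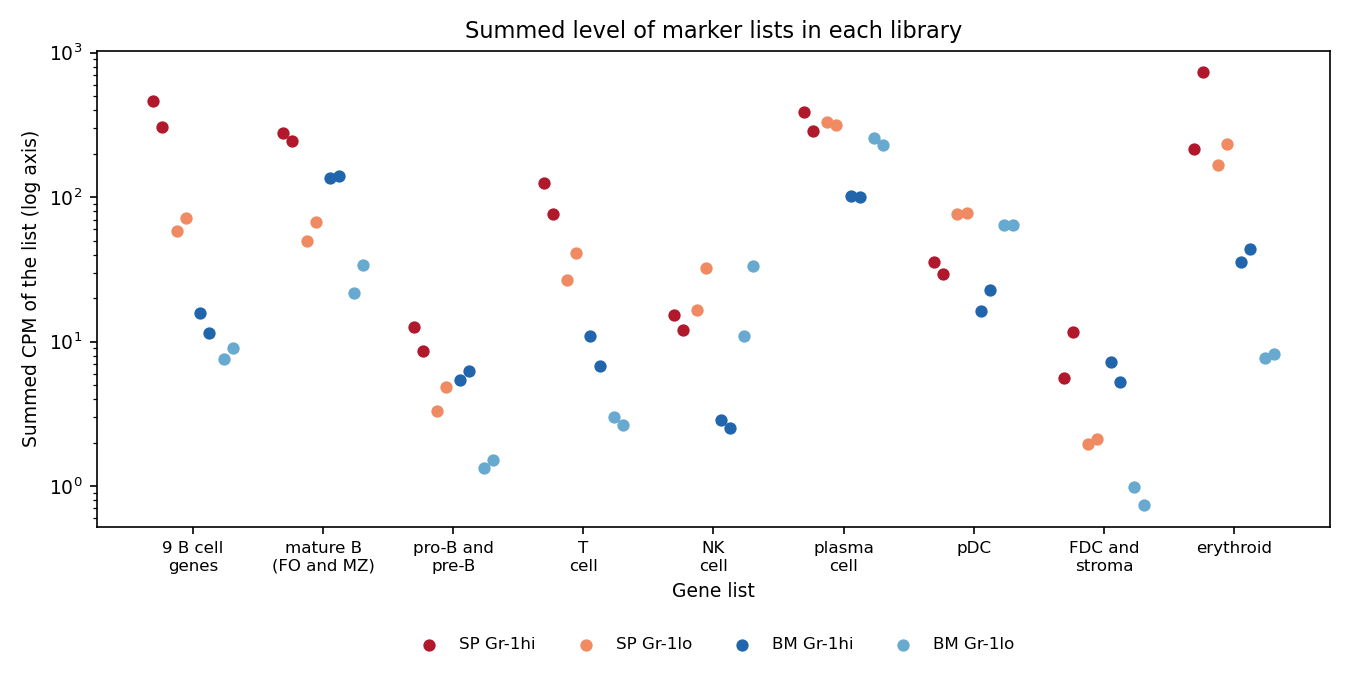
Summed CPM (log axis) of the 9 B cell genes and of 8 marker lists in each library, 1 point per library (FO, follicular; MZ, marginal zone; pDC, plasmacytoid dendritic cell; FDC, follicular dendritic cell). The 9 B cell genes run from 308 to 466 CPM in SP Gr-1hi down to 7.52 to 8.99 CPM in BM Gr-1lo, and T cell genes take the same order of groups. The mature B, pro-B and pre-B, NK cell, plasma cell, pDC and FDC lists do not, and in the erythroid list the SP groups overlap. In BM Gr-1hi the mature B sum (136 to 139 CPM) came mostly from *Cd55* (130 CPM on average). By group mean, *Ighd*, *H2-Ob*, *Cxcr5*, *Dtx1*, *Ccr6* and *Fcrl5* of that list kept the order, and *Cd55*, *Cd1d1* and *S1pr3* did not.

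Across the 8 libraries, the genes whose log2(CPM + 1) was most like the mean of the 9 were *Fcmr* (Pearson's r = 0.9992), *H2-Eb2* (0.9972), *Sh2d2a* (0.9971), *Ighd* (0.9967) and *Cd4* (0.9967), among 13415 genes with a mean of at least 1 CPM. *Fcmr* encodes an IgM receptor of B cells, *H2-Eb2* an MHC class II chain, *Sh2d2a* an adaptor of T cells and *Cd4* the T helper co-receptor. The libraries of a group and of a gate are alike in composition, so these r describe the profile over 8 points and carry no p. With a pseudocount of 0.1 in place of 1, *Sh2d2a* and *Ighd* stayed among the first 5. Of the 9 genes themselves, *Ms4a1* was closest to the mean (r = 0.9978) and *Cd79b* farthest (0.9235). Pairs of the 9 that leave out *Cd79b* had r of 0.9655 to 0.9982, and pairs with *Cd79b* had 0.8491 to 0.9402.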

How the data were processed

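Counts of reads per gene were deposited by the authors as whole numbers without normalization for 54188 genes and 8 libraries. Per the labels and the methods of the study, stranded mRNA libraries were read as pairs, checked with FastQC, filtered with Sickle, aligned to GRCm38.p6 with STAR and counted with featureCounts on GENCODE M24. Whether counting used the strand was not given in the sources used here. No column was left unused (0).

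In R 4.3.3, edgeR 4.0.16 was used: after filterByExpr (17650 genes left) and TMM scaling, counts were fitted by a robust quasi-likelihood model with 1 term per group over all 8 libraries (4 residual degrees of freedom). Adjusted p values are those of Benjamini-Hochberg across every gene tested. SE is the log2 FC divided by the square root of F. The 2 libraries of a group differed more in SP Gr-1hi (chi-square per degree of freedom 66.7) than in the other groups (18.9 to 21.3). SE and adjusted p rest on a spread shared by all groups, which can be too small for SP Gr-1hi. TPM used exon lengths of GENCODE M21, which holds 53947 of the genes. The pipeline was tested on simulated data. Alternatives used limma 3.58.1, DESeq2 1.42.0, other scalings and filters, and subsets of libraries.

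The 9 genes and the 16 gene lists were chosen with earlier results of these data known. Named beside the 9 were the 3 list genes with the highest mean CPM in SP, the 5 genes most like the mean of the 9, and the sort and sex markers. Some further list genes, such as *Cxcl13* and *Tnfsf13b*, were named outside this rule. Values of some list genes are not reported here.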

Additional observations from a re-analysis of the deposited data

Results flagged for a closer look

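*Cd79b* had a difference between Gr-1hi and Gr-1lo cells that differed between the tissues, with a log2 interaction of 3.13 (SE 0.31, quasi-likelihood test of edgeR, Benjamini-Hochberg adjusted p = 0.00184). Both SP Gr-1hi libraries lay above both SP Gr-1lo libraries, and both BM Gr-1hi libraries lay below both BM Gr-1lo libraries. Over the alternative settings the interaction ran from 2.36 to 3.32 and passed in each. Groups of 2 libraries are too small for a test of single outlying libraries.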

How the results depend on the processing

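Each result was computed again under upper-quartile or RLE scaling, without a filter, with DESeq2, from only the 4 libraries compared, with limma on quantile-normalized TPM (log2 of TPM + 1, summed values of at least 10), at other thresholds and without each library in turn. The fit without libraries 5 and 7 was added after seeing the data. Where 1 library was left in a group, it was assumed to vary like the others. Shares of all genes were counted for the main edgeR fit only, so counts from the other fits have none beside them. The count in Gr-1hi cells between SP and BM was 9 in each setting, and that in Gr-1lo cells was 8 except with limma (6). Between SP fractions the count of 0 became 2 with RLE scaling, 2 with upper-quartile scaling, 2 with DESeq2, 9 at the looser thresholds (2-fold, adjusted p 0.05), and 0 to 3 without 1 library; it was 3 without library 6 and 2 without library 7. *Cr2* and *Il9r*, just under 8-fold, were the genes that passed with the scalings and DESeq2. Between BM fractions the count of 1 became 0 from the 4 libraries alone, where *Cr2*, *Fcer2a* and *Il9r* were not tested, 0 with limma, 6 at the looser thresholds, and 0 to 2 without 1 library; it was 0 without library 9 or 11 and 2 without library 10 or 12. The looser count of 5 higher genes there became 8 with DESeq2 or without a filter, 7 with RLE scaling or without libraries 5 and 7, and 1 with limma. The interaction count of 1 became 8 with limma, where 1 is added to TPM values whose means in both BM groups were below 1 for 7 of the 9 genes.

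Signs changed in the interaction alone, in genes that did not pass by edgeR, and the cause was not tested. With limma the values were 2.02 for *Ms4a1*, 2.43 for *Cr2* and 2.14 for *Il9r*. Without libraries 5 and 7 they were -0.12 for *Cd79a*, -0.43 for *Fcer2a* and -0.17 for *Pax5*. Without 1 library they ran from -0.23 to 0.71 for *Cd79a*, -1.05 to 0.50 for *Ms4a1*, -0.0396 to 0.81 for *Cd22*, -3.50 to 1.90 for *Cr2*, -1.02 to 1.37 for *Fcer2a* and -0.36 to 0.67 for *Pax5*. TMM put the median log2 FC of all genes at -0.175 between BM fractions and RLE at -0.0251, a shift that leaves every member's direction there as it was. No paired analysis was possible because no source used here says which libraries share a mouse. Marrow levels of *Cr2*, *Fcer2a* and *Il9r* are limited by depth, at 13 counts or fewer per library.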
